A study of Mus musculus with 12 samples.

Results

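The mitochondrial ribosomal proteins are described here in mouse liver, as the 76 genes whose symbol is Mrpl or Mrps followed by digits, out of 15846 genes with deposited counts. Of these, 47 have an Mrpl symbol and 29 an Mrps symbol, and they lie on 17 chromosomes. RNA was sequenced from 12 livers of C57BL/6 mice aged 5 months, in 4 groups of 3 mice: hepatocyte Shp knockout (Shp Hep-/-, called KO) on the diet that the labels name HFCF, wild type (WT) on HFCF, KO on chow, and WT on chow. Shp is an orphan nuclear receptor (gene symbol Nr0b2) that represses transcription through other factors. The sources used here do not give the driver of the knockout, or the diet's composition and duration. Both differences, KO against WT and HFCF against chow, were asked of each member.

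The mitochondrial ribosome sits in the matrix at the inner membrane and translates the messenger RNAs of mitochondrial DNA, which encode hydrophobic core subunits of the respiratory chain. Its RNAs are transcribed in the mitochondrion, whereas all its proteins are encoded in the nucleus, translated in the cytosol and imported. Many of these proteins have bacterial homologs, and others are found only in mitochondrial ribosomes, so the members were sorted by subunit and by this origin. The liver is rich in mitochondria, which carry out fatty acid oxidation, ketogenesis and part of the urea cycle.

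The large subunit was represented by 29 bacterial homologs and 20 mitochondria-specific proteins, and the small subunit by 16 and 10. Mrps18a and Mrps30 carry small subunit symbols but their products sit in the large subunit, and they were counted there. Mrps36 is not a ribosomal subunit but a component linked to the alpha-ketoglutarate dehydrogenase complex. It had 77 counts over all libraries and Mrpl23 had 65, so these 2 genes did not pass the filter on low counts, and 74 members were tested.

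Libraries held 13967116 to 18324134 counts, of which the members took 0.183% to 0.218%. Tested members had 430 (Mrps33) to 12644 (Mrps7) counts over all 12 libraries. Nr0b2, the targeted gene, was at 0.21 to 1.01 CPM (counts relative to library size, after TMM scaling) in the 6 KO livers and at 22.4 to 53.4 CPM in the 6 WT livers. WT HFCF replicate 1 stood apart from its group, as its chi-square per degree of freedom over genes was 35.3 with replicate 2 and 37.8 with replicate 3, while replicates 2 and 3 differed by 12.2. Where leaving it out ended a call of a member described below, the value without it is given. All 8 hepatocyte markers examined had at least 4641 counts in each library.

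Per length, the members were expressed above most genes. Their median FPKM (fragments relative to gene length and library size) over the 12 livers was 14.7, with quartiles of 6.97 and 24.5, against a median of 3.34 FPKM over all genes. The level was above that median in 70 of 76 members. Mrpl52 was the highest at 53.3 ± 3.18 FPKM (SD over 12 livers), followed by Mrpl12 at 37.9 ± 5.06 FPKM and Mrpl42 at 37.5 ± 4.39 FPKM. Mrpl12 encodes the stalk protein that recruits translation factors. The livers' ranges of Mrpl12 and Mrpl42 overlapped (28.5 to 49.1 and 29.3 to 44.7 FPKM), and Mrpl52, at 48.7 to 58.7 FPKM, was above every liver's Mrpl42. The lowest were Mrpl23 at 0.197, Mrps36 at 0.325 and Mrps33 at 1.88 FPKM. Mrpl23 had 1 to 12 counts per library, and whether its reads were lost in the counting cannot be seen from the deposited values.

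Large subunit genes were on the whole listed higher than small subunit genes. The median FPKM was 18.7 for bacterial homologs and 15.2 for mitochondria-specific proteins of the large subunit. It was 11.4 for bacterial homologs and 7.65 for mitochondria-specific proteins of the small subunit. Within each class the members spread widely in FPKM, and a subunit's genes were not at a shared value. The variation between livers of 1 group was small by comparison, with a median SD of 0.104 on the log2 scale for the tested members against 0.173 for all tested genes. The order of genes and classes in FPKM depends on the listed gene lengths. Mrpl13 (7936 bases) had 5705 counts over all libraries and 3.90 FPKM. Mrpl14 (949 bases) had a similar 5458 counts and 31.1 FPKM. The part of gene length in the class medians was not tested.

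**Figure D1:**
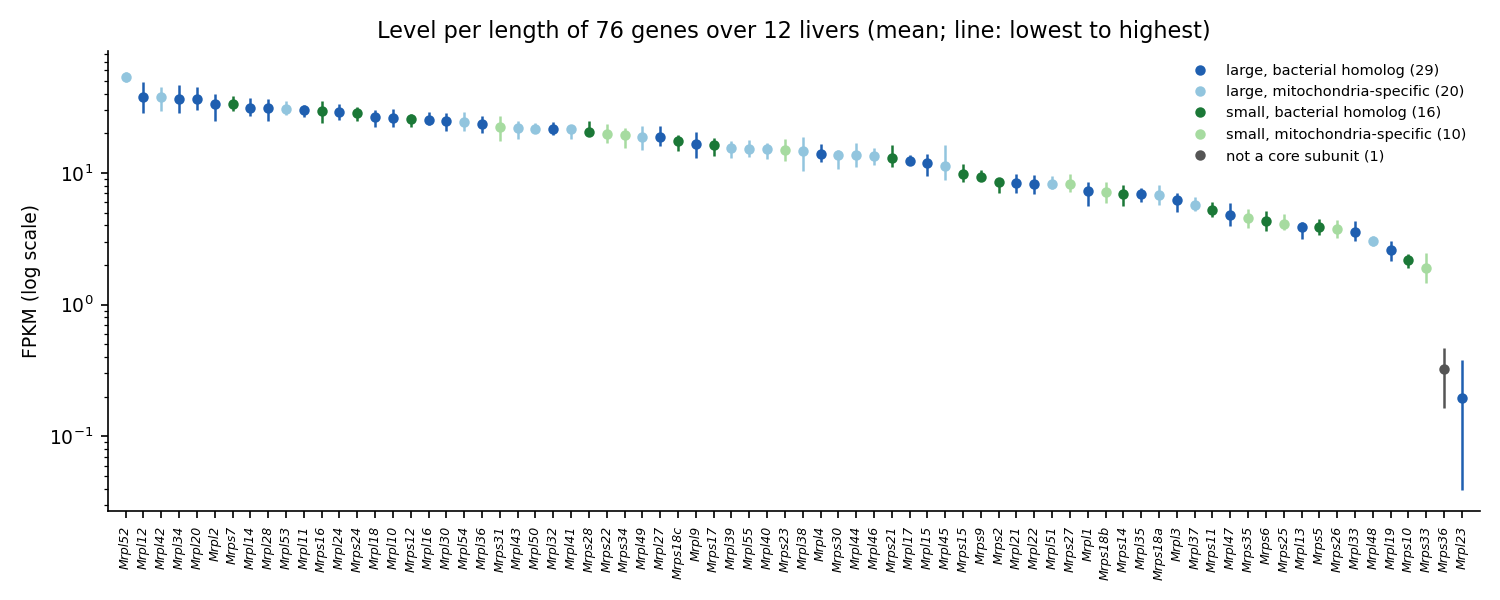
FPKM (log axis) of the 76 genes, sorted by mean over 12 livers, with points as means, lines from the lowest to the highest liver and colors for subunit class. The genes run from 53.3 FPKM (Mrpl52) to 0.197 FPKM (Mrpl23), and the 2 genes below the filter stand apart at the right.

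The first result was a small, broad decrease of the members in KO livers. Their summed level was 1956, 1952 and 1913 CPM in KO HFCF livers, against 2149, 2127 and 2035 CPM in WT HFCF livers. It was 1925, 1824 and 2004 CPM in KO chow livers, against 2107, 2178 and 2213 CPM in WT chow livers. On this scale all 6 KO livers lay below all 6 WT livers. The means of KO and WT livers were 1940 ± 24.1 and 2104 ± 60.5 CPM on HFCF and 1918 ± 90 and 2166 ± 53.9 CPM on chow (SD, n = 3 each). Among WT livers the 2 diets overlapped, and so they did among KO livers. In bulk liver, fewer cells of a type and less RNA per cell cannot be told apart.

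The separation on chow, and that of all KO from all WT livers, depended on the scale. Summed FPKM, which scales counts to the length of a gene and the total of its library with no TMM factor, was 1158 ± 23.6 in KO HFCF and 1313 ± 40.7 in WT HFCF livers, where the groups did not overlap. It was 1198 ± 92.4 in KO chow and 1312 ± 26.0 in WT chow livers (SD, n = 3 each). KO chow replicate 3 reached 1296 FPKM, inside the WT chow range of 1284 to 1336 FPKM and above WT HFCF replicate 3 at 1270 FPKM. As a share of counts, also without a TMM factor, the members took 0.2107% in KO chow replicate 3. This was just below the WT chow range of 0.2110% to 0.2181% and above WT HFCF replicate 3 at 0.2101%.

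**Figure D2:**
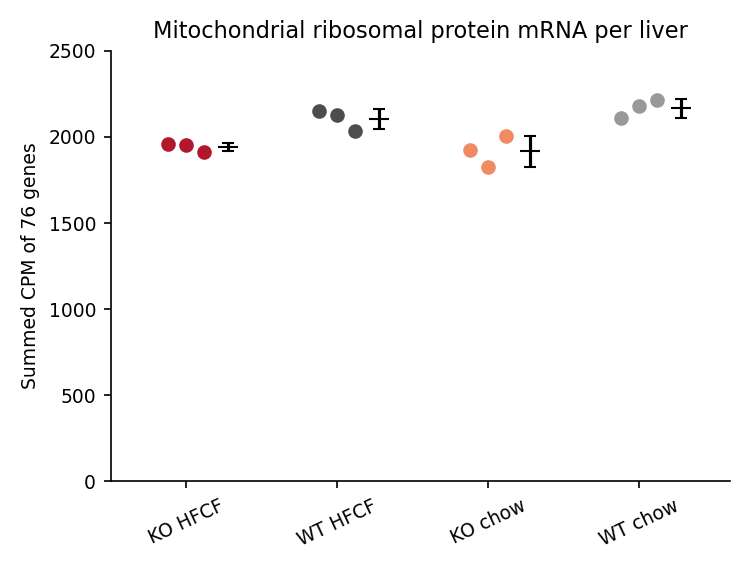
Summed CPM of the 76 genes in each liver (points), with the mean and SD of each group of 3 (bars) and an axis from 0. KO livers lie between 1824 and 2004 CPM and WT livers between 2035 and 2213 CPM.

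Over both diets together, 21 of 74 members were lower and 1 was higher in KO livers (edgeR quasi-likelihood test, adjusted p under 0.05), where 12.8% of all tested genes were called lower and 16.8% higher. The median log2 fold change was -0.11 for the members and 0.01 for all tested genes. The log2 fold change was below 0 in 68 of 74 members, against 48.5% of all tested genes. The called-lower members make up 28.4% of those tested. This mean of both diets was added after the contrasts on each diet had been seen. Of the 22 calls, 16 held in all 19 alternative fits, among them those that left out each library in turn, and all 22 kept their direction. Without WT HFCF replicate 1, 18 of the 22 held, and those of Mrpl10, Mrpl15, Mrpl43 and Mrps18b ended (edgeR adjusted p = 0.0549, 0.0645, 0.0580 and 0.0742).

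The calls fell in every class. Of the large subunit, 8 of 28 bacterial homologs and 5 of 20 mitochondria-specific members were lower in KO livers. Of the small subunit, 4 of 16 and 4 of 10 were lower. The class medians of the log2 fold change lay between -0.14 (small, mitochondria-specific) and -0.11, so the classes were not separated by their medians, and no test between classes was made.

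The 16 members whose calls held came from several places in the ribosome. From the large subunit's bacterial homologs they were Mrpl34, Mrpl9, Mrpl18, Mrpl2 and Mrpl3, which encode core proteins of the subunit, together with Mrpl28 and with Mrpl1, the relative of the bacterial protein of the movable L1 stalk. From the large subunit's mitochondria-specific proteins they were Mrpl45, Mrpl49, Mrpl38 and Mrpl39. From the small subunit they were Mrps7, Mrps16 and Mrps24, which are bacterial homologs, and Mrps26 and Mrps34, which are mitochondria-specific. Their log2 fold changes ran from -0.48 ± 0.06 (Mrpl45, edgeR adjusted p = 8.74e-05) to -0.21 ± 0.05 (Mrps24, edgeR adjusted p = 0.00638). On a linear scale these are modest differences, as the values per liver below show.

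In 11 members all 6 KO livers lay below all 6 WT livers, where 4.27% of all tested genes did. These were Mrpl2, Mrpl9, Mrpl18, Mrpl28, Mrpl38, Mrpl39, Mrpl45, Mrpl49, Mrps7, Mrps26 and Mrps34. No member had all 6 KO livers above all 6 WT livers, where 5.67% of all tested genes did.

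Mrpl45 had the largest genotype difference on HFCF and over both diets. Its product, related to the yeast protein Mba1, lies at the exit of the nascent chain tunnel and anchors the ribosome to the inner membrane. Mrpl45 (chr11:97315715-97329920, plus strand, mm10, protein coding) had 26.5, 23.8 and 25.8 CPM in KO HFCF livers, against 40, 36.2 and 41.0 CPM in WT HFCF livers. It had 24.7, 23.1 and 21.7 CPM in KO chow livers, against 26.7, 29.5 and 31.9 CPM in WT chow livers. The WT HFCF livers were the highest of all 12 and stood clear of the other 3 groups. Between genotypes it differed by a log2 of -0.63 ± 0.09 on HFCF (edgeR adjusted p = 0.000301) and -0.34 ± 0.09 on chow (edgeR adjusted p = 0.0212). The call on HFCF held in all 20 alternative fits. The call on chow ended without WT chow replicate 3, KO chow replicate 2 or KO chow replicate 3 (edgeR adjusted p = 0.0990, 0.0585 and 0.0733). The difference between the diets' genotype effects did not pass the test (-0.28 ± 0.13, edgeR adjusted p = 0.348).

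Mrpl49 and Mrpl9 were the other members whose calls on HFCF held in all 20 fits. Mrpl49 (chr19:6053629-6057758, minus strand) encodes a mitochondria-specific large subunit protein, and Mrpl9 (chr3:94443317-94451130, plus strand) the relative of bacterial L9. Mrpl49 had 28.8, 29.5 and 26.4 CPM in KO HFCF livers, against 35.9, 38.9 and 38.1 CPM in WT HFCF livers. On chow it had 28.8, 26.9 and 31.5 CPM in KO livers, against 33.0, 35.3 and 37.5 CPM in WT livers. The KO livers were the lower ones on both diets, without overlap. Its log2 fold change was -0.41 ± 0.08 on HFCF (edgeR adjusted p = 0.00337), and on chow it was -0.28 ± 0.08 (edgeR adjusted p = 0.0373). The chow call of Mrpl49 held in 14 of 20 fits. It ended, among others, without WT chow replicate 2 or 3 or KO chow replicate 1 or 2 (edgeR adjusted p = 0.0700, 0.145, 0.0946 and 0.137) and when only the compared groups were fitted (0.0604).

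Mrpl9 had 39.4, 41.5 and 36.5 CPM in KO HFCF livers, against 49.7, 48.8 and 54.0 CPM in WT HFCF livers. On chow it had 39.6, 38.0 and 44.0 CPM in KO livers, against 46.3, 44.5 and 56.1 CPM in WT livers. The 2 chow groups came close to each other but did not overlap. Its log2 fold change was -0.38 ± 0.10 on HFCF (edgeR adjusted p = 0.0129) and -0.27 ± 0.10 on chow, which did not pass (edgeR adjusted p = 0.0700).

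On chow the calls of Mrpl34 and Mrpl18 held in all 20 fits. Mrpl34 (chr8:71464925-71465752, plus strand) encodes the relative of bacterial L34, a short protein of the large subunit, and Mrpl18 (chr17:12911348-12916345, minus strand) a protein of the central protuberance. Mrpl34 had 20.8, 18.3 and 23.5 CPM in KO chow livers, against 27.9, 30.4 and 30.5 CPM in WT chow livers. On HFCF it had 19.3, 19.2 and 20.9 CPM in KO livers, against 23.7, 27.6 and 21.4 CPM in WT livers. KO livers were the lower ones on both diets, by a wide gap on chow and a narrow one on HFCF. The log2 fold change of Mrpl34 was -0.29 ± 0.11 on HFCF, which did not pass (edgeR adjusted p = 0.0830). On chow it was -0.50 ± 0.11 (edgeR adjusted p = 0.00773), the largest fall of a member there.

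Mrpl18 had 32.9, 32.6 and 32.1 CPM in KO chow livers, against 42.2, 39.6 and 42.2 CPM in WT chow livers. On HFCF it had 35.0, 34.0 and 32 CPM in KO livers, against 41.6, 42.3 and 37.0 CPM in WT livers. Its 6 KO livers lay close together and below every WT liver. Its log2 fold change was -0.26 ± 0.07 on HFCF (edgeR adjusted p = 0.0220), and on chow it was -0.34 ± 0.07 (edgeR adjusted p = 0.00716). The HFCF call ended without WT HFCF replicate 1 or 2 or KO HFCF replicate 3 (edgeR adjusted p = 0.0587, 0.0878 and 0.0581), and when only the compared groups were fitted (0.0583). Exons of Mrpl18 share 10.1% of their bases with Tcp1 on the opposite strand, so part of its count is uncertain if reads were counted without strand.

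The promoter windows of these 5 genes are shown because their genotype calls on 1 diet held in every fit. Each runs from 250 bases before to 50 after the start of the RefSeq transcript on GRCm38.p6, 5′ to 3′ on the gene's strand, at chr11:97315466-97315765 (plus), chr19:6057706-6058005 (minus), chr3:94443086-94443385 (plus), chr17:12916042-12916341 (minus) and chr8:71464676-71464975 (plus). Capitals mark matches on either strand to GCGC, 2 bases of any kind and GCGC, the core that NRF1 recognizes, or to CCGGAAG, the core of ETS factors such as GABPA.
Mrpl45: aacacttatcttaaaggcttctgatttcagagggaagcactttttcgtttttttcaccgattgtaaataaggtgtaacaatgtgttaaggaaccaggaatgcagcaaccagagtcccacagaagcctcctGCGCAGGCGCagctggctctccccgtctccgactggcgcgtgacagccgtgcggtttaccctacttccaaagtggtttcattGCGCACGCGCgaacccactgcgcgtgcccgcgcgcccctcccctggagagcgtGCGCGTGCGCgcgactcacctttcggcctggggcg
Mrpl49: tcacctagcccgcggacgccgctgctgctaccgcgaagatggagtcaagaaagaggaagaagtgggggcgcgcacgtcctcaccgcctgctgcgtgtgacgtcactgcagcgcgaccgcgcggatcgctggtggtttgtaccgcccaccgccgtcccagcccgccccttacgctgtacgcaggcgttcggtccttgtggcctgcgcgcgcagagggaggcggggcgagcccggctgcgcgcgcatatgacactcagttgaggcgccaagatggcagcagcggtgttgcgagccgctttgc
Mrpl9: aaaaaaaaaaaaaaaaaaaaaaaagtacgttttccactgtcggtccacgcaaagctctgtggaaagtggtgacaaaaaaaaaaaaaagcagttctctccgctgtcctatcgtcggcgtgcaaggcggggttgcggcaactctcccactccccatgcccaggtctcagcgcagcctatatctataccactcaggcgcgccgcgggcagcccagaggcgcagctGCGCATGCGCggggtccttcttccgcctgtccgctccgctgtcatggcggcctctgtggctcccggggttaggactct
Mrpl18: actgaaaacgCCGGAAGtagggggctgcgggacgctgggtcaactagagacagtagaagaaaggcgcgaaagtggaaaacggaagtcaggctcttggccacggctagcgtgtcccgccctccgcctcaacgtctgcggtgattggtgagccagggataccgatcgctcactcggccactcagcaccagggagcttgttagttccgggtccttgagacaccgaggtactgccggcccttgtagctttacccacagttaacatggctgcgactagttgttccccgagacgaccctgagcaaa
Mrpl34: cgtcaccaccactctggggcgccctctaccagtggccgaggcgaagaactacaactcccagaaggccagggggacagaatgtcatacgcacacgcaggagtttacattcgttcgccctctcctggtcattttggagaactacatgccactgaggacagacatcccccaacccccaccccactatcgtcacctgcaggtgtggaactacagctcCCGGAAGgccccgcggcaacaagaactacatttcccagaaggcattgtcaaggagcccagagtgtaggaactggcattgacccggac
The Mrpl45 window held 3 NRF1 matches and that of Mrpl9 held 1, while those of Mrpl18 and Mrpl34 held 1 ETS match each. The Mrpl49 window held neither. A match describes these letters only.

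Such matches were frequent over the whole family. A window was found for 67 of 76 members, some with several starts, giving 73 windows of 300 bases. The NRF1 core was in 17.8% of member windows, against 6.23% of all 32851 windows and 11.9% of the 12860 windows of genes in the count table. The ETS core CCGGAAG was in 32.9%, against 8.86% and 15.3%, and AANATGGCG, the core of the factor YY1, in 13.7%, against 2.38% and 4.4%. Windows were searched on both strands. Among the 18 members with a window that were lower in KO livers over both diets, 5 held the NRF1 core, 7 the ETS core and 1 the YY1 core. Among the other 49 members with a window, 8, 17 and 9 did.

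The members' genes often start close to the start of a gene on the other strand. The GENCODE M21 annotation of GRCm38 held 75 of the 76. For 32 members (42.7%) a protein-coding gene started on the other strand within 1000 bases of their own start, on either side. The share was 15.4% among the 13321 protein-coding genes in the count table. Mrps11 and Mrpl46 form such a pair within the family. Exon bases were shared with a gene on the opposite strand in 27 members, over 10% of the exon bases in 14, and with a gene on the same strand in 7. Mrps34 shares 37.0% of its exon bases with Nme3 on the same strand and 63.4% with Mapk8ip3 on the other, and Mrps7 shares 11.9% with genes on the other strand. Their counts are uncertain to that extent, since the strand setting of the counting was not given in the sources used here.

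**Figure D3:**
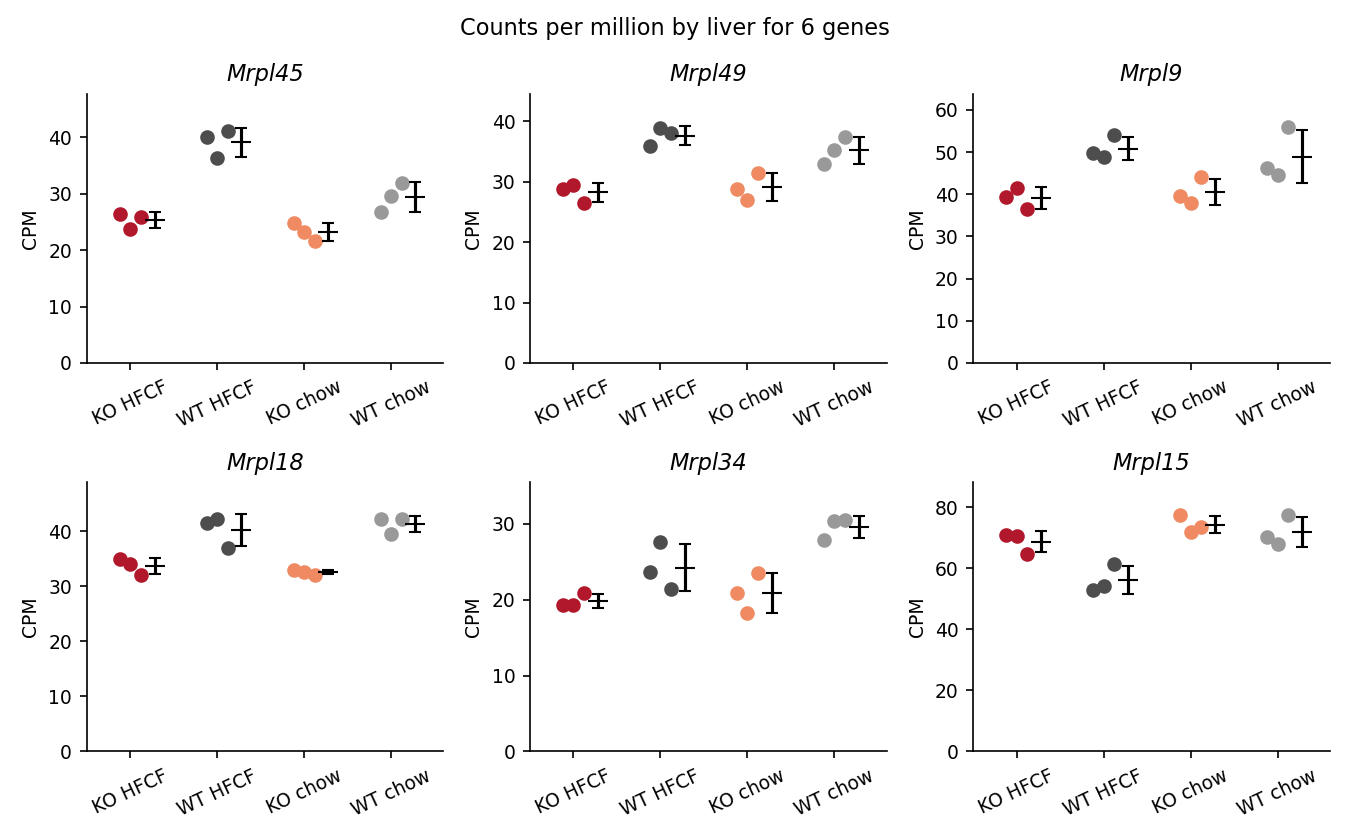
CPM per liver (points) with group mean and SD (bars, n = 3) for the 5 genes above and Mrpl15, each on an axis from 0. KO livers lie below WT livers on both diets for the first 5 genes, while Mrpl15 is lowest in WT HFCF livers, at 53.0 to 61.3 CPM.

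On chow taken alone, 13 of 74 members (17.6%) were lower in KO livers and 0 were higher, where 5.82% of all tested genes were called lower and 9.72% higher (edgeR adjusted p under 0.05). The unadjusted p was under 0.05 for 30 members that were lower and for 0 that were higher. Of all 14736 tested genes, 1972 were lower and 2504 higher by that rule. The median log2 fold change was -0.15, against 0.00 for all tested genes, and 68 members were below 0, against 49.4% of all tested genes. KO and WT livers did not overlap in 31 members, all lower in KO, where 16.8% of all tested genes were lower without overlap and 19.4% higher. The called members were 3 bacterial homologs and 4 mitochondria-specific proteins of the large subunit, and 3 of each of the small subunit.

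The count on chow leaned on single libraries. Leaving out KO chow replicate 1 gave 3 calls and leaving out KO chow replicate 2 gave 2. Leaving out WT chow replicate 2 gave 7 and leaving out WT chow replicate 3 gave 3. KO chow replicate 3 had the highest summed level of its group, and the median log2 fold change without it was -0.20. Apart from Mrpl34, Mrpl18 and Mrpl45, the calls with the lowest adjusted p were those of Mrps24, Mrpl24 and Mrpl39. Mrps24, a bacterial homolog of the small subunit, had 38.2, 37.1 and 40.7 CPM in KO chow livers, against 45.8, 47.1 and 46.0 CPM in WT chow livers. The log2 fold change of Mrps24 was -0.26 ± 0.07 (edgeR adjusted p = 0.0253), and its call ended without WT chow replicate 2 or 3 or KO chow replicate 1 or 2 (edgeR adjusted p = 0.0593, 0.0681, 0.0706 and 0.0913). Exons of Mrps24 share 15.4% of their bases with Urgcp on the same strand, so part of its count is uncertain.

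Mrpl24, the relative of bacterial L24 near the tunnel exit, fell on chow and did not pass the test on HFCF. It had 56.4, 60.9 and 64.4 CPM in KO chow livers, against 72.8, 72.1 and 76.7 CPM in WT chow livers. On HFCF it had 65.1, 72.2 and 62.3 CPM in KO livers, against 59.5, 67.9 and 61.5 CPM in WT livers. The genotypes were apart on chow and overlapped on HFCF. Between genotypes it differed by a log2 of 0.08 ± 0.08 on HFCF (edgeR adjusted p = 0.535) and by -0.29 ± 0.08 on chow (edgeR adjusted p = 0.0266). The difference between the diets' genotype effects did not pass the test (0.37 ± 0.11, edgeR adjusted p = 0.160). The chow call ended without WT chow replicate 1 or 3 or KO chow replicate 1 or 2 (edgeR adjusted p = 0.0513, 0.104, 0.1 and 0.0669). Exons of Mrpl24 share 26.3% of their bases with Rrnad1 on the opposite strand.

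On HFCF taken alone, 9 of 74 members (12.2%) were lower and 1 was higher in KO livers, where 8.52% of all tested genes were called lower and 10.6% higher (edgeR adjusted p under 0.05). The count of lower members is thus not far from the share of all genes. The median log2 fold change was -0.10, against 0.02 for all tested genes, and 60 members were below 0, against 47.1% of all tested genes. KO livers were below WT livers without overlap in 24 members and above in 3, where 15.7% and 18.5% of all tested genes were. Without WT HFCF replicate 1, the liver that stood apart, 4 of the 10 calls held and 6 ended, and 1 other member was called. The same counts were found without WT HFCF replicate 2. The called bacterial homologs were all of the large subunit, with 5 lower and 1 higher of 28 tested. Of the 16 of the small subunit, 0 were called. Among them 3 were lower at an unadjusted p under 0.05, where 2136 of all 14736 tested genes were.

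Mrpl38 and Mrps26 had the next lowest adjusted p on HFCF. Mrpl38 encodes a mitochondria-specific protein of the large subunit and Mrps26 one of the small subunit. Mrpl38 had 27.4, 33.1 and 33.4 CPM in KO HFCF livers, against 39.7, 47.8 and 42.4 CPM in WT HFCF livers, a log2 difference of -0.47 ± 0.12 (edgeR adjusted p = 0.0163). The call of Mrpl38 ended without WT HFCF replicate 2 or KO HFCF replicate 1 (edgeR adjusted p = 0.0718 and 0.0635). Mrps26 had 14.5, 14.1 and 14.6 CPM in KO HFCF livers, against 19.0, 18.2 and 16.8 CPM in WT HFCF livers, a log2 difference of -0.32 ± 0.09 (edgeR adjusted p = 0.0196). The call of Mrps26 ended without WT HFCF replicate 1 or 2 (edgeR adjusted p = 0.0634 and 0.0573). In both genes the KO livers lay below the WT livers without overlap on both diets. On chow the call of Mrps26 held in 8 of 20 fits and that of Mrpl38 in 15. The chow call of Mrpl38 ended without WT chow replicate 2 or 3 or any one of the KO chow livers (edgeR adjusted p = 0.0562 to 0.150). That of Mrps26 ended without any one of the WT chow livers, KO chow replicate 1 or 2, WT HFCF replicate 2 or KO HFCF replicate 3 (edgeR adjusted p = 0.0524 to 0.155). It also ended with DESeq2 (adjusted p = 0.0861) and when only the compared groups were fitted with edgeR (adjusted p = 0.0781).

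Mrpl15 went the other way and was the only member called higher in KO livers. Its product is the relative of bacterial L15 in the large subunit. Mrpl15 (chr1:4773205-4785739, minus strand) had 70.9, 70.7 and 64.6 CPM in KO HFCF livers, against 53.0, 54.1 and 61.3 CPM in WT HFCF livers. On chow it had 77.3, 71.8 and 73.7 CPM in KO livers, against 70.1, 68.1 and 77.5 CPM in WT livers. The WT HFCF livers were below the other 3 groups, and the chow groups overlapped. Between genotypes it differed by a log2 of 0.29 ± 0.08 on HFCF (edgeR adjusted p = 0.0181) and 0.05 ± 0.08 on chow (edgeR adjusted p = 0.726). The HFCF call ended without WT HFCF replicate 1 or 2 or KO HFCF replicate 1 or 2 (edgeR adjusted p = 0.0580, 0.0712, 0.0848 and 0.0921), and when only the compared groups were fitted (0.0555).

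The genotype differences on the 2 diets come from separate libraries, 6 on each diet, and were set side by side. Both were below 0 in 57 of 74 members, where 32.9% of all tested genes had both below 0, and both were above 0 in 3. Of the others, 11 were below 0 on chow and above 0 on HFCF, and 3 the reverse. Mrpl18, Mrpl38, Mrpl45, Mrpl49 and Mrps26 were called lower on both diets, 5 of 74 members, where 2.91% of all tested genes were. On chow, none of these 5 calls except that of Mrpl18 held in all 20 alternative fits. The 5 make up 38.5% of the members called lower on chow and 55.6% of those called lower on HFCF. Among all tested genes, 429 were called lower on both diets, of 857 called lower on chow and 1256 on HFCF. Across the 74 members the 2 log2 fold changes had a Pearson correlation of 0.44 and a Spearman correlation of 0.37, as a description across genes that share libraries and scaling.

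**Figure D4:**
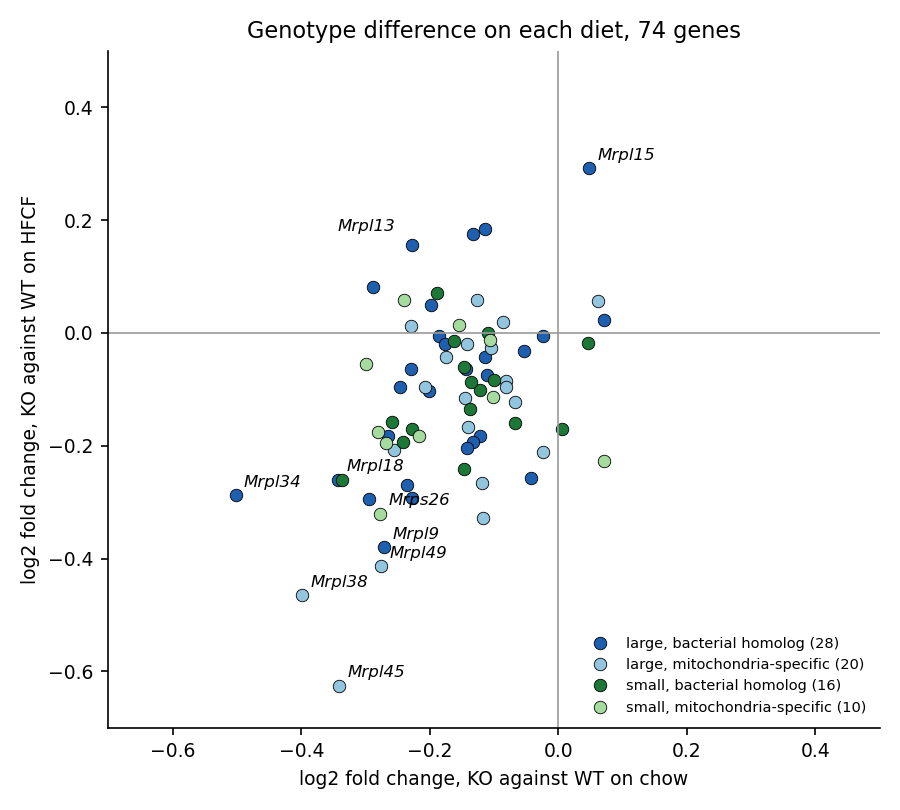
Log2 fold change of KO against WT on chow (x axis) and on HFCF (y axis) for the 74 tested genes, colored by subunit class. Points gather at the lower left (57 of 74), with Mrpl45 lowest on HFCF at -0.63, Mrpl34 lowest on chow at -0.50 and Mrpl15 highest on HFCF at 0.29.

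No member passed the test of the interaction of genotype and diet, which called 0.794% of all tested genes. By edgeR 6 members had an unadjusted p under 0.05 with a higher and 1 with a lower difference on HFCF than on chow. Of all 14736 tested genes, 842 and 1103 did. DESeq2 and limma voom called 0 members. Mrpl13, the relative of bacterial L13, had the lowest adjusted p. It had 35.3, 33.0 and 33.0 CPM in KO HFCF livers, against 31.4, 30.5 and 29.1 CPM in WT HFCF livers. On chow it had 29.4, 25.1 and 28.2 CPM in KO livers, against 31.3, 32.7 and 33.0 CPM in WT livers. KO livers were above WT livers on HFCF and below them on chow, without overlap in either, and the difference was 0.38 ± 0.11 (edgeR adjusted p = 0.127).

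The diet changed few members. In WT livers 1 of 74 was higher and 3 were lower on HFCF than on chow (edgeR adjusted p under 0.05), where 7.76% of all tested genes were called higher and 5.90% lower. The median log2 fold change was -0.02, against 0.00 for all tested genes. HFCF and chow livers of WT did not overlap in 5 members that were higher and 12 that were lower on HFCF, where 15.8% and 15.3% of all tested genes did not. Mrpl45 was the member called higher, at 0.41 ± 0.09 (edgeR adjusted p = 0.00777), in all 20 alternative fits. Mrpl15 was lower at -0.36 ± 0.08 (edgeR adjusted p = 0.00908), which was lost without WT chow replicate 3 (edgeR adjusted p = 0.0508).

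Mrpl21 and Mrps22 were the other members called lower with the diet in WT livers, near the threshold. Mrpl21, the relative of bacterial L21, had 16.1, 17.6 and 14.9 CPM in WT HFCF livers, against 19.1, 19.5 and 20.1 CPM in WT chow livers, a log2 difference of -0.27 ± 0.08 (edgeR adjusted p = 0.0455). Mrps22, a mitochondria-specific small subunit protein, had 22.5, 21.6 and 21.8 CPM in WT HFCF livers, against 26.5, 28.2 and 26.4 CPM in WT chow livers, a log2 difference of -0.30 ± 0.09 (edgeR adjusted p = 0.0466). The call of Mrpl21 ended in 15 and that of Mrps22 in 16 of the 20 alternative fits. Both ended without WT HFCF replicate 1 (edgeR adjusted p = 0.107 for Mrpl21 and 0.0854 for Mrps22), when 3 members were called, 2 of the 4 and 1 other. The count of 4 was 2 without any one of WT chow replicates 1, 2 and 3, KO chow replicate 1, WT HFCF replicate 3 and KO HFCF replicates 1, 2 and 3. It was also 2 with RLE scaling, DESeq2 and the compared groups alone.

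In KO livers the diet changed 0 of 74 members (edgeR adjusted p under 0.05), where 2.65% of all tested genes were called. By edgeR 3 members were higher and 1 was lower at an unadjusted p under 0.05, where 1413 and 1218 of all 14736 tested genes were. DESeq2 and limma voom called 0 members, and edgeR called 1 without WT HFCF replicate 1. HFCF livers did not overlap with chow livers in 7 members that were higher and 4 that were lower on HFCF, where 13.1% and 11.3% of all tested genes did not. The median log2 fold change was 0.02. Mrpl13 had the lowest adjusted p here too, at 0.29 ± 0.08 (edgeR adjusted p = 0.0602), and Mrpl45, at 0.13 ± 0.09, did not pass (edgeR adjusted p = 0.492). Over both genotypes, a contrast added after the others were seen, 1 member was higher (Mrpl45) and 4 were lower on HFCF (Mrpl15, Mrpl21, Mrps22 and Mrps23), where 9.43% of all tested genes were called higher and 7.45% lower. Without WT HFCF replicate 1 the calls of Mrps22 and Mrps23 ended (edgeR adjusted p = 0.0517 and 0.0712). The count of 5 was 2 when KO HFCF replicate 1 or KO chow replicate 1 was left out, and 3 without KO HFCF replicate 3, KO chow replicate 3 or WT chow replicate 2 or 3.

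**Figure D5:**
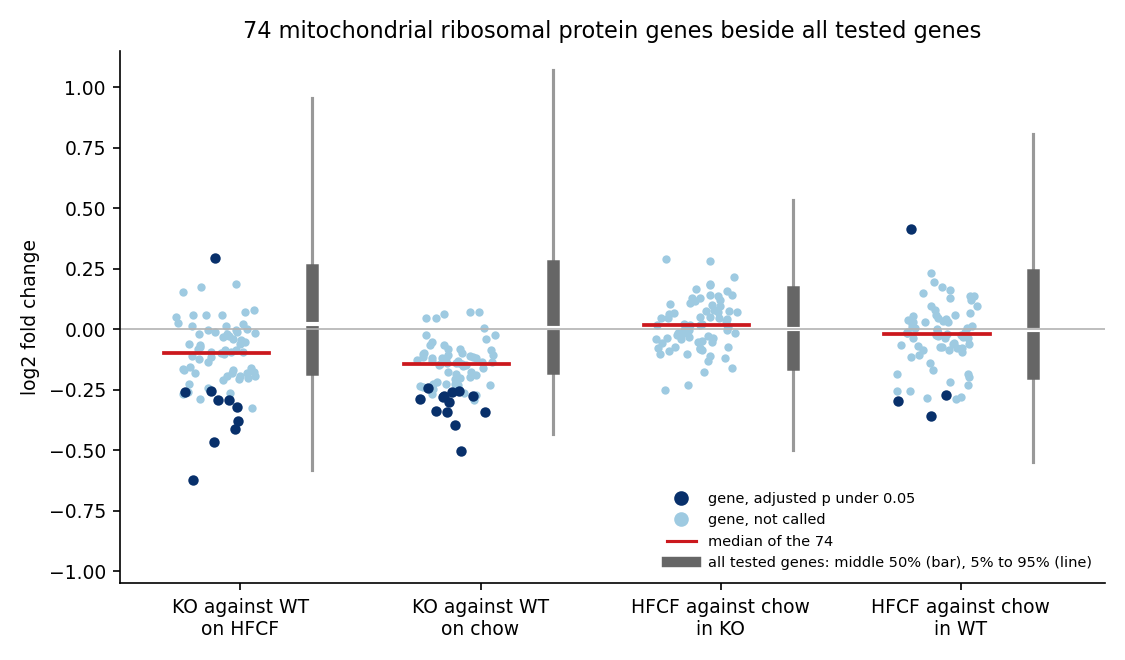
Log2 fold changes of the 74 tested genes (points, dark where edgeR adjusted p is under 0.05) and their median (red line) in 4 comparisons, beside the middle 50% (bar) and the 5% to 95% range (line) of all tested genes, with the white mark at the median. The medians of the 74 are -0.10 and -0.15 in the genotype comparisons and 0.02 and -0.02 in the diet comparisons.

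Ribosomal proteins of the mitochondrion that carry other names were also lower in part. Over both diets all 7 tested had a log2 fold change below 0 in KO livers (median -0.16), where 48.5% of all tested genes did. On chow alone 1 of 7 was called lower, and on HFCF alone 0 were. Over both diets 3 were called lower, where 12.8% of all tested genes were. These were Ict1 (-0.25 ± 0.06, edgeR adjusted p = 0.00442), a subunit that also acts as a peptidyl-tRNA hydrolase, Chchd1 (-0.30 ± 0.08, edgeR adjusted p = 0.00934) and Dap3 (-0.22 ± 0.06, edgeR adjusted p = 0.0146), a GTP-binding protein of the small subunit. Chchd1 had 17.9, 21 and 15.9 CPM in KO HFCF livers, against 22.9, 21.9 and 22.7 CPM in WT HFCF livers, and its KO livers were the lower ones without overlap.

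Among lists of genes that build and serve the mitochondrial ribosome, the share called lower over both diets was highest for assembly factors and lay near or below the 12.8% of all tested genes for the others. Of assembly factors, 7 of 27 tested rows (25.9%; Nsun4 has 2 rows) were called lower and 0 higher over both diets (median -0.12), led by Rbfa, a maturation factor for small subunit rRNA, at -0.24 ± 0.05 (edgeR adjusted p = 0.00228). Of translation factors, 1 of 14 (7.14%) was lower, the elongation factor gene Gfm1 at -0.21 ± 0.07 (edgeR adjusted p = 0.0246), and 1 higher, Mtfmt, which formylates the initiator tRNA, at 0.28 ± 0.09 (edgeR adjusted p = 0.0346). Gfm1 was not called when KO chow replicate 2 was left out (edgeR adjusted p = 0.0517), and the call of Mtfmt ended in 9 of 19 alternative fits. Of mitochondrial aminoacyl-tRNA synthetases, 3 of 19 (15.8%) were lower (median -0.02), with the alanyl enzyme Aars2 at -0.30 ± 0.06 (edgeR adjusted p = 0.00168). Of the mitochondrial DNA and RNA machinery, 2 of 12 (16.7%) were lower (median -0.11). One was Tfam, which packages mitochondrial DNA and starts its transcription, at -0.26 ± 0.05 (edgeR adjusted p = 0.00238).

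Other mitochondrial proteins were called lower in part over both diets, where 12.8% of all tested genes were called lower. Of matrix chaperones and proteases, 7 of 13 (53.8%) were lower and 0 higher (median -0.16), with the protease gene Lonp1 at -0.30 ± 0.05 (edgeR adjusted p = 0.000331) and the chaperone gene Trap1 at -0.31 ± 0.05 (edgeR adjusted p = 0.000609). Of import and outer membrane genes, 5 of 11 (45.5%) were lower (median -0.14), with the channel gene Vdac1 at -0.28 ± 0.05 (edgeR adjusted p = 0.00081). Of the 13 messenger RNAs that this ribosome translates, 8 were in the count table and tested. Over both diets 7 of these 8 had a log2 fold change above 0 in KO livers (median 0.22). Of all 14736 tested genes, 7593 did. On chow alone 7 of 8 were above 0 (median 0.27), and on HFCF alone 5 of 8 were (median 0.10). Their summed level was 10725 ± 514 CPM in KO HFCF and 11220 ± 997 CPM in WT HFCF livers. On chow it was 11302 ± 1268 CPM in KO and 11757 ± 126 CPM in WT livers (SD, n = 3 each). Over both diets 3 of the 8 were called higher and 1 lower, where 16.8% and 12.8% of all tested genes were. Those called higher were mt-Nd2, mt-Nd4 and mt-Nd5, of complex I, with mt-Nd5 at 0.41 ± 0.08 (edgeR adjusted p = 0.00108), and mt-Co1 of complex IV was lower at -0.19 ± 0.06 (edgeR adjusted p = 0.0314).

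Regulators of mitochondrial biogenesis were called in both directions, with 2 of 10 higher and 2 lower in KO livers over both diets. Of all tested genes, 16.8% were called higher and 12.8% lower, so these counts are not far from the share of all genes. Gabpa, whose product binds the ETS core, was lower at -0.25 ± 0.05 (edgeR adjusted p = 0.00194). It had 68.2, 75.7 and 66.6 CPM in KO HFCF livers, against 75.7, 77.8 and 82.7 CPM in WT HFCF livers. On chow it had 68.1, 66.7 and 73.8 CPM in KO livers, against 86.7, 90.4 and 86.6 CPM in WT livers. The groups met at 75.7 CPM on HFCF and were apart on chow. Pprc1, a coactivator gene, was higher at 0.44 ± 0.10 (edgeR adjusted p = 0.00571), as was Myc at 1.04 ± 0.28 (edgeR adjusted p = 0.0121), while Nrf1 did not pass at -0.06 ± 0.09 (edgeR adjusted p = 0.657).

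Cytosolic ribosomal proteins were set beside them. On HFCF 2 of 73 tested were called higher and 1 lower in KO livers, with a median log2 fold change of 0.09 and 17 below 0. On chow 0 were called by edgeR, and 13 were lower and 0 higher at an unadjusted p under 0.05. Of all 14736 tested genes, 1972 and 2504 were. The median of the cytosolic genes was -0.12 and 61 were below 0, against -0.15 and 68 of 74 below 0 for the mitochondrial ones. Over both diets 4 of 73 were higher and 1 lower in KO livers, with a median log2 fold change of 0.00, against 1 higher and 21 lower of the 74 mitochondrial ones. With the diet in WT livers, 22 of the 73 cytosolic genes were lower and 0 higher (median -0.29), against 3 lower and 1 higher of the mitochondrial ones (median -0.02). Many cytosolic genes have near-identical pseudogene copies, so their counts are uncertain, and no test between the 2 families was made.

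Markers of several other liver cell types moved with the genotype. Summed over 9 Kupffer cell and macrophage markers, the level was 783 to 835 CPM in KO HFCF and 324 to 679 CPM in WT HFCF livers, and 574 to 594 CPM in KO chow and 350 to 395 CPM in WT chow livers. Over both diets 8 of these 9 were called higher and 0 lower in KO livers. So were 6 of 6 B cell, 5 of 5 tested T and NK cell and 5 of 9 stellate cell markers, with 0 lower in each. Of all tested genes, 16.8% were called higher. Endothelial markers, with 1 of 8 called higher (12.5%), and cholangiocyte markers, with 1 of 5 (20%), were near that share, with 0 lower in each. Summed B cell markers were at 74.8 to 82.1 CPM in KO HFCF and 5.80 to 10.3 CPM in WT HFCF livers. On chow they were at 121 to 167 CPM in KO and 6.23 to 10.2 CPM in WT livers. T and NK cell markers summed to 6.98 to 11.4 CPM in KO HFCF and 2.13 to 3.07 CPM in WT HFCF livers, and on chow to 5.93 to 10.6 CPM in KO and 1.77 to 3.22 CPM in WT livers, with Cd3d, Cd3e and Gzma at 0 in some libraries. Stellate cell markers summed to 669.9 to 900.3 CPM in KO HFCF and 736 to 888 CPM in WT HFCF livers, and on chow to 793 to 808 CPM in KO and 537 to 658 CPM in WT livers. Summed over 8 hepatocyte markers, the level was 54698 to 55415 CPM in KO HFCF and 48485 to 55183 CPM in WT HFCF livers, and 50654 to 57742 CPM in KO chow and 59520 to 60307 CPM in WT chow livers. Of these 8, 1 was called higher and 2 lower over both diets. The part of these cells in the decrease of the mitochondrial ribosomal proteins was not tested.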

How the data were processed

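Total RNA from 12 livers was depleted of ribosomal RNA and turned into strand-specific libraries, per the labels' protocols. The deposited table held raw read counts for each gene in each liver, and FPKM values, which the authors computed from counts and gene lengths, per the file headers. Reads were placed on mm10, per the submitters' processing notes. Which aligner, annotation, counter and strand option were used was not given in the sources used here.

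Groups came from the labels, which describe 3 separate mice in each. Genes were kept by filterByExpr (minimum count 10, minimum total 15), which left 14736 and removed 1110, and all genes were fitted with edgeR 4.0.16 in R 4.3.3 (TMM scaling, quasi-likelihood test, 4 group means, all 12 libraries). A call means a p under 0.05 after Benjamini-Hochberg adjustment over all tested genes, and ± beside a log2 fold change gives its standard error. FPKM was used for levels only. Replicate pairs differed by more than sampling noise, so none was counted as a repeat.

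The members and gene lists were chosen with earlier results of these data known. Named members were, per contrast, up to 6 called in each direction with the lowest adjusted p (3 where none was called), those of largest change, the highest and lowest in FPKM, and a few fixed names, and from each list up to 3 called genes per contrast. Printed genes are fewer, and members named where a count is spelled out were named after their values were seen. The contrasts over both diets and both genotypes were added after seeing the data.

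The alternatives tried were scaling by RLE or upper quartile, no filter, at least 1 CPM in at least 6 libraries, the replicate number as a block, DESeq2 1.42.0, limma voom (limma 3.58.1), only the compared groups in the fit, and each library left out in turn. The pipeline was tested on simulated data whose planted changes were larger than those of the members. That test therefore does not show how well changes of the size called here are recovered. Promoter sequences are from RefSeq on GRCm38.p6, and figures were drawn with matplotlib 3.10.9.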

Additional observations from a re-analysis of the deposited data

How the results depend on the processing

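All called members kept their sign under each alternative. The count of members that the diet changed in WT livers was 4, and 2 with RLE scaling, DESeq2, the compared groups alone and the replicate block. Leaving out 1 library gave 2 to 4. The count with the diet in KO livers was 0, and 0 to 1 with a library left out. The genotype count on chow was 13, and 2 to 16 with a library left out, and its median log2 fold change of -0.15 then ran from -0.20 to -0.11. The genotype count on HFCF was 10, and 5 to 14 with a library left out. Over both diets it was 22, with 17 to 26 in all 19 alternatives. Over both genotypes the diet count was 5, and 2 with DESeq2 and 2 to 6 with a library left out. The interaction count stayed at 0 in all 19. Medians near 0 in the diet comparisons took either sign. The cause of these shifts was not tested.

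With the replicate block the genotype count on chow was 8, over both diets 21 and on HFCF 9. On chow it ended 5 calls, those of Mrpl49, Mrps26, Mrps31, Mrps16 and Mrps7 (edgeR adjusted p = 0.0532, 0.0684, 0.0514, 0.0599 and 0.0518). Equal replicate numbers were not taken to pair the livers, since the 12 same-numbered pairs of libraries had correlations of -0.15 to 0.17 and 4 of them exceeded 0.1. In 12 of 24 comparisons of a library with another group, it correlated best with the library of its own number, where 8 would be drawn by chance. This was 6 of 6 for WT HFCF with WT chow, whose same-numbered pairs had correlations of 0.081 to 0.17 and other pairs -0.092 to -0.022, as a hint from the data. It was 0 of 6 for KO HFCF with KO chow. The 2 members below the filter had too few counts to test. Counts of genes that share exon bases or near copies are uncertain.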
